A study of Mus musculus with 23 samples.

Results

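The Notch ligands, receptors and target genes were followed as 10 genes, Notch1, Notch2, Notch4, Dll1, Dll4, Jag1, Jag2, Hes1, Hey1 and Hey2, out of 20145 genes that could be named on the array. They were chosen by gene symbol, through the RefSeq accession of each probe, and each gene was read from the probe that was brightest on average across the arrays. All 10 reached a log2 intensity of 6.5 on at least 1 array and were among the 15202 genes tested.

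Notch receptors are membrane proteins that are cleaved after binding a Delta-like or Jagged ligand on a neighbouring cell. The released intracellular part joins the DNA-binding protein RBPJ and Mastermind-like coactivators and switches on genes of the HES and HEY families, which encode transcriptional repressors. In the embryo this pathway is known for its part in arterial identity and in the formation of haemogenic endothelium, the vessel wall cells that give rise to blood.

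RNA was measured on 1-colour Agilent mouse arrays in cells derived from A2lox mouse ES cells, of strain C57BL/6 per the labels, in blast culture, which starts from Flk1+ mesoderm cells. The cells carried an HA-tagged human RUNX1-ETO gene, the fusion oncogene of a form of acute myeloid leukaemia, under a TET promoter on a RUNX1 wild-type background. All groups, uninduced ones included, came from this line, and no array of Dox-treated cells without the transgene was analysed here, so that an effect of Dox itself and of RUNX1-ETO cannot be told apart. At day 2, haemogenic endothelium (HE, KIT+Tie2+CD41−), HE2 (KIT+Tie2+CD41+) and CD41+KIT+Tie2− progenitors were sorted, either uninduced or with 0.1 µg/ml Dox from day 1. Myeloid progenitors were grown to day 3 from sorted progenitors in expansion medium for 12 h, without or with Dox. Dox was added only with this medium, so that induced myeloid progenitors did not come from the induced progenitors. Comparisons of induced myeloid progenitors with induced cells of the blast culture thus mix stage with the start and length of Dox. HE, HE2 and myeloid progenitors had 3 arrays without and 3 with Dox, and progenitors had 2 and 2. A further uninduced progenitor array is called a technical replicate in 1 label and replicate 3 in another and stayed outside the fit, and the labels of induced myeloid array 3 disagree in the same way, although it was fitted.

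Between 48.8 and 78.4% of the spots of an array were well above background and none was saturated. The probe of mouse Runx1t1, the ETO gene, was higher with Dox on the log2 scale, by 1.24 in HE and 2.08 in HE2, and by 3.96 in progenitors and 2.06 at the myeloid stage, and the first of these was not called (adjusted P = 0.0155 by limma). Whether this mouse probe reads the human transgene was not tested. All 13 endothelial markers of the list were well above background in each of the 8 groups on at least 1 array, and Tek, which encodes the sort marker Tie2, went from 11.95 in uninduced HE to 10.67 in HE2 and 8.67 in progenitors. Neither step of Tek was called (adjusted P = 0.321 and 0.167 by limma), and its HE and HE2 arrays overlapped. Induced progenitors, although sorted as Tie2−, had a Tek mean of 11.1, above that of uninduced HE2. Their arrays, at 10.91 to 11.29, lay within the range of uninduced HE2, 9.58 to 11.31. The Tek difference with Dox in progenitors was 2.43 (adjusted P = 0.124 by limma) and was not called. Itga2b, which encodes CD41, had overlapping levels in uninduced HE and HE2, with means that differed by 1.103 (adjusted P = 0.351 by limma), although the sort separated these cells by CD41. With Dox it fell by 3.22 (adjusted P = 0.00205 by limma) in HE and had -2.46 (adjusted P = 0.0139), not called, in HE2. HE and HE2 arrays lay on slides 1 and 2, all myeloid arrays lay on slide 3 and were scanned on another day, and the progenitor arrays were spread over the 3 slides.

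A change was called when limma's P value was 0.001 or lower and the fold was 2 or higher, with 1 fit to all 22 arrays, and adjusted P values (Benjamini-Hochberg) run over all genes tested. Changes are given on the log2 scale as fitted value and SE, and levels as log2 intensity of that gene's own probe, so that levels of different genes were not compared. In these sorted populations, fewer cells of a kind and less RNA per cell cannot be told apart. The P values measure the spread between arrays labelled as biological replicates.

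With Dox, Notch4 was upregulated at 3 of 4 stages, Jag1 was upregulated in myeloid progenitors, and Notch2, Jag2 and Hes1 were downregulated in HE, with Notch2 also downregulated in HE2. In HE, none of the 10 genes rose and 3 fell, where 4.7% of all tested genes rose and 2.39% fell. In HE2, 1 rose and 1 fell, beside 5.17% and 2.05% of all genes. In progenitors 1 rose and none fell, beside 3.03% and 0.704%, and in myeloid progenitors 2 rose and none fell, beside 5.13% and 1.18%. The median change of the 10 genes was -0.073 in HE and 0.42 in HE2, followed by 0.0999 in progenitors and 0.087 at the myeloid stage, and the median over all genes lay between -0.044 and -0.0077.

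**Figure D1:**
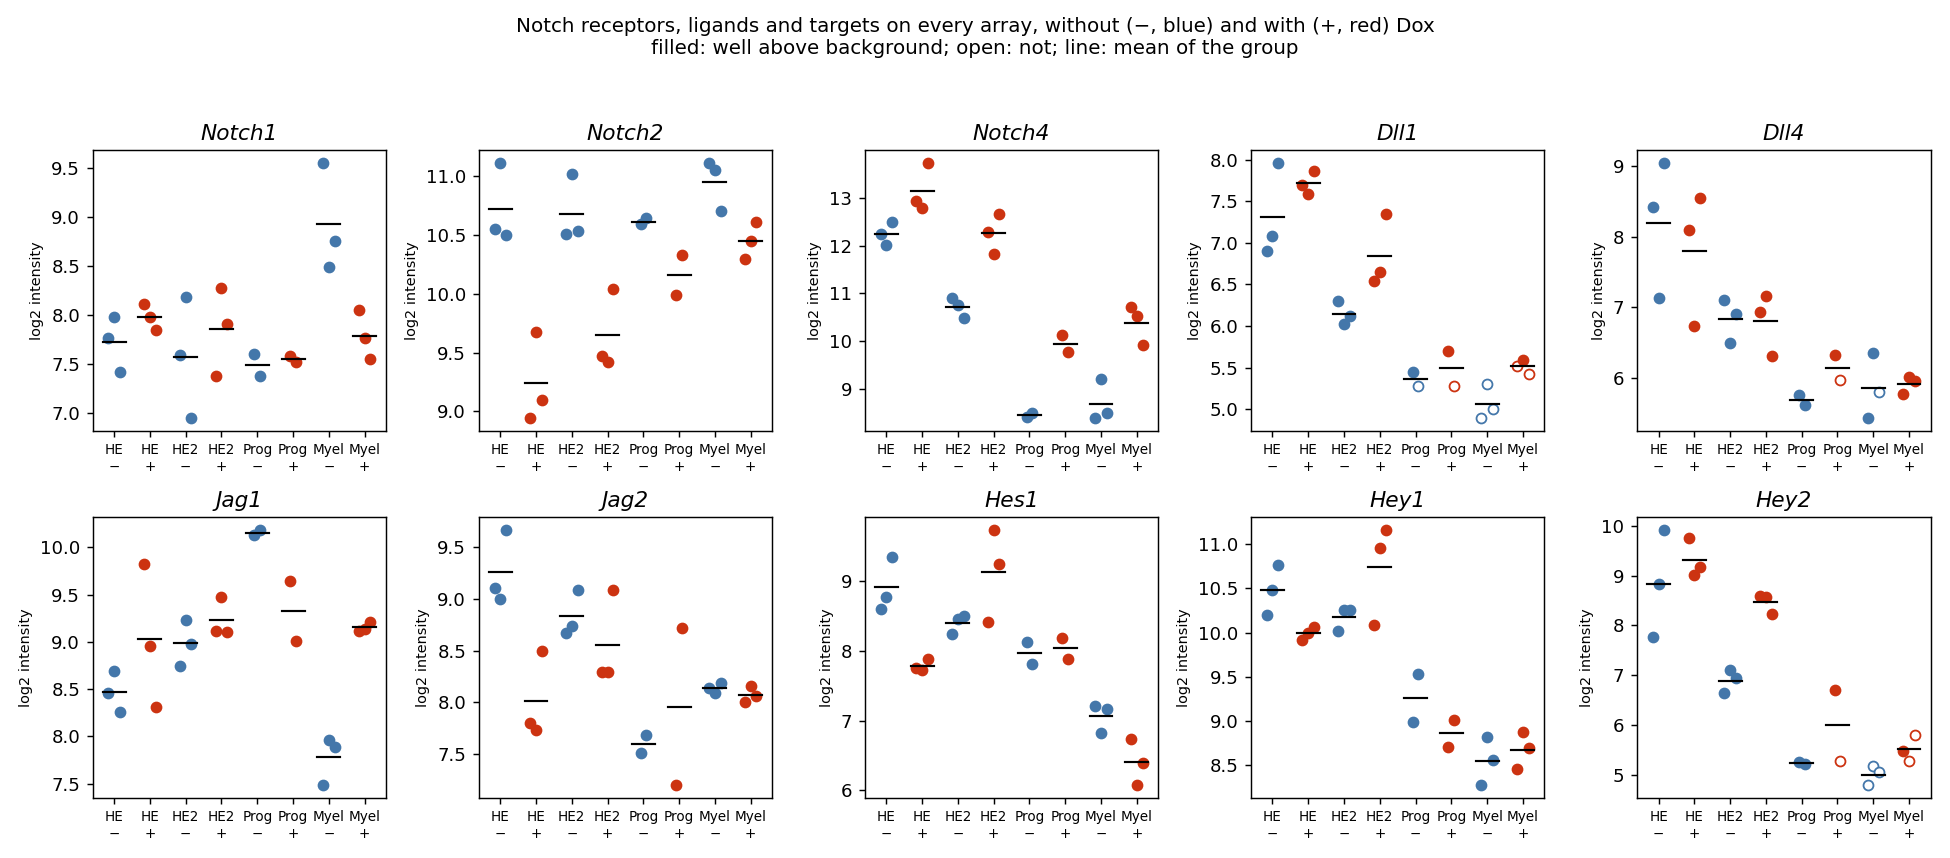
Log2 intensity (y axis) of each of the 10 Notch genes on every fitted array, by stage and Dox (x axis), with uninduced arrays in blue, induced arrays in red, open points for probes not well above background and a line at the mean of each group. Notch4 and Hey2 ran downhill from HE to progenitors, from 12.25 to 8.46 and from 8.84 to 5.24 without Dox, and the Jag1 means turned the other way, from 8.47 to 10.15.

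Among the receptors, Notch4, which is expressed mainly in endothelial cells, spanned the widest range of the 10 genes, 4.69 on the log2 scale between the lowest and the highest group mean. Its log2 intensity was 12.24, 12.01 and 12.50 on the uninduced HE arrays and 12.93, 12.80 and 13.73 on the induced ones. On HE2 arrays it was 10.90, 10.76 and 10.48 without Dox and 12.28, 11.83 and 12.67 with Dox. The induced HE2 arrays thus lay within or close to the range of uninduced HE, and above every uninduced HE2 array. Progenitor arrays had 8.41 and 8.50 without Dox and 10.13 and 9.77 with Dox, and myeloid arrays had 8.39, 9.20 and 8.49 without Dox and 10.71, 10.53 and 9.92 with Dox. At none of the 4 stages did induced and uninduced arrays overlap.

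Notch4 rose with Dox by 1.55 (SE 0.286, adjusted P = 0.000981 by limma) in HE2, by 1.49 (SE 0.35, adjusted P = 0.0151) in progenitors and by 1.69 (SE 0.286, adjusted P = 0.000429) in myeloid progenitors. In HE the difference was 0.90 (SE 0.286, adjusted P = 0.0392), which was not called. The response in HE2 was not shown to differ from that in HE, since the difference between the 2 responses was 0.65 (SE 0.404, adjusted P = 0.79 by limma). Within slide 1 the Notch4 difference was 0.80 in HE, 1.45 in HE2 and 1.72 in progenitors, and within slide 2 it was 0.76 in HE and 1.77 in HE2. The call in progenitors was lost when any of its 4 arrays was left out, with values from 1.31 to 1.67, and with the slide or the scan date as a block (1.71 and 1.67). In myeloid progenitors the value was 1.93 without induced array 3.

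Notch4 also fell along the normal path, by 1.54 (SE 0.286, adjusted P = 0.00174 by limma) from uninduced HE to HE2 and by 2.25 (SE 0.319, adjusted P = 0.000104) from there to progenitors. With Dox it fell by 2.31 (SE 0.319, adjusted P = 8.4e-05) from HE2 to progenitors, while the step from HE to HE2 was -0.90 (adjusted P = 0.0778) and was not called. The 250 bases before the annotated start of Notch4 are shown together with those of Hey2. Both genes fell from HE to progenitors and lay higher with Dox in HE2. The Dll1 means did so too, with 6.85 against 6.15 in HE2, but its windows are not shown. The bases shown come from the RefSeq table of build GRCm38.p6, which holds 8 of the 10 genes, and run 5′ to 3′ along the strand of the gene. Capitals mark the RBPJ motif TGGGAA or its reverse complement TTCCCA, and the RUNX motif TGTGGT or its reverse complement ACCACA.

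Notch4, chr17:34564045-34564294 (+ strand): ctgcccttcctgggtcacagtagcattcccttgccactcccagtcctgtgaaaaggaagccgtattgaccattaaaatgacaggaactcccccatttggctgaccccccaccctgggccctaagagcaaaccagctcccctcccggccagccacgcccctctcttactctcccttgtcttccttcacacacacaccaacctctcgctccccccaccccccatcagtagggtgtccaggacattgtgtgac

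Hey2, chr10:30842784-30843033 (- strand): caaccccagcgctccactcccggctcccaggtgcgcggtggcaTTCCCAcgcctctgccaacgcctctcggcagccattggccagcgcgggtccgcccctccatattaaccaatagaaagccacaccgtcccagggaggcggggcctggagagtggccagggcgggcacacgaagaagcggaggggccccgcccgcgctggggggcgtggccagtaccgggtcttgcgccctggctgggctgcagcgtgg

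Hey2 held 1 RBPJ match, on the opposite strand and 207 bases before the start at its first base, and Notch4 held none. Neither window held the RUNX motif. Among all 32851 promoter windows of the same length, 21.6% held the RBPJ motif and 14% the RUNX motif, on either strand. The windows of Notch1, Notch2, Dll1 (2 starts), Dll4, Jag1 and Jag2 held neither motif, which says only that these letters are not in these windows. GC bases made up 58.4% of the Notch4 window and 71.6% of the Hey2 window.

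Like Notch4, the endothelial markers taken as a sum fell from HE to progenitors without Dox and lay higher with Dox at each stage. Their summed level was 18.84 to 19.17 on uninduced HE arrays, 18.04 to 18.35 in HE2, 16.43 to 16.52 in progenitors and 16.06 to 16.34 in myeloid progenitors. With Dox it was 19.19 to 19.45, 19.31 to 19.45, 18.05 to 18.25 and 18.49 to 18.85 in the same order. The sum adds unlogged intensities, so that the brightest markers, Egfl7 and Ramp2 (means of 17.82 and 17.23 in uninduced HE), weigh most. In HE the means of Cdh5, Pecam1 and Sox17 were lower with Dox, and those of the other markers higher. Cdh5 went from 15 to 14.27, Pecam1 from 10.85 to 10.73 and Sox17 from 12.34 to 11.81. With Dox, the markers that rose numbered 1 of 13 in HE and 5 in HE2, then 6 in progenitors and 11 at the myeloid stage, and none fell, where 4.7, 5.17, 3.03 and 5.13% of all genes rose. The count in HE was thus near the background. Their part in the Notch4 result was not tested. The 3 genes whose pattern over the 22 arrays was most like that of Notch4 were Ushbp1, Prom1 and Epas1 (Pearson's r = 0.984, 0.982 and 0.978 across arrays that share stages and slides). Epas1 encodes a hypoxia-inducible factor that is abundant in endothelium.

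**Figure D2:**
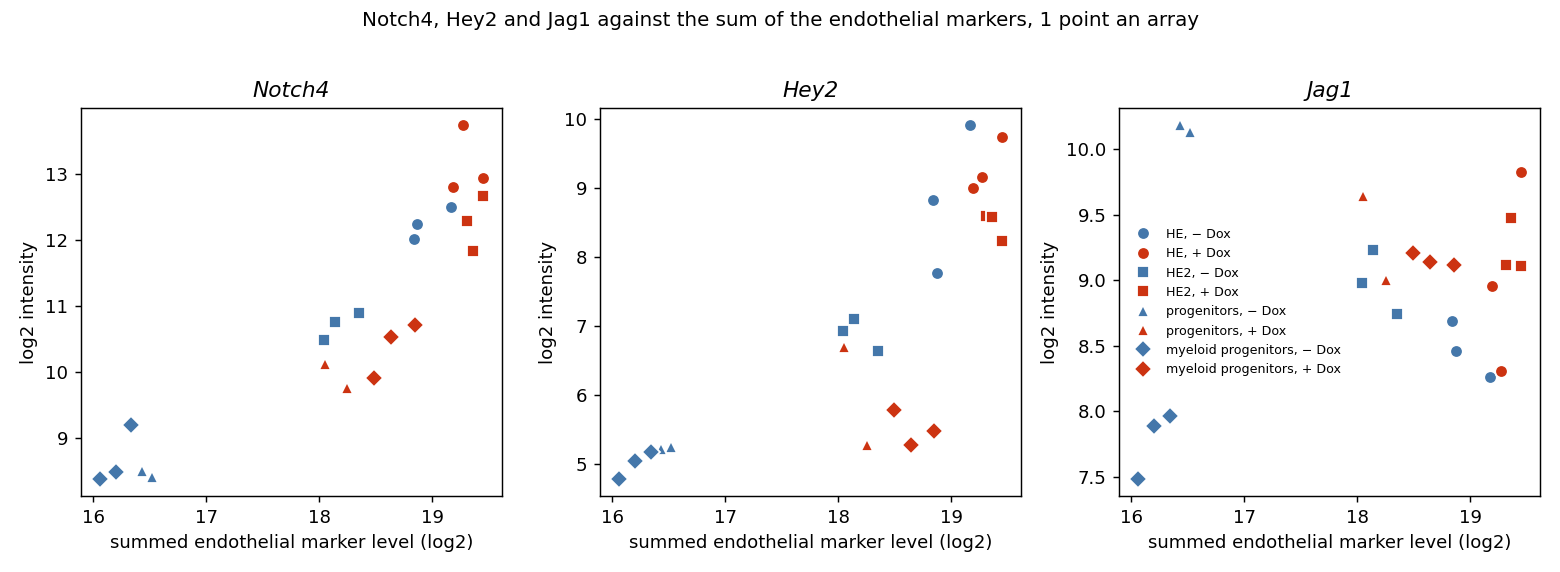
Log2 intensity of Notch4, Hey2 and Jag1 (y axes) against the log2 of the summed intensity of 13 endothelial markers (x axes), 1 point for each of 22 arrays, with shape for stage, blue without and red with Dox. Notch4 tends to be higher where the marker sum, which ranges from 16.06 to 19.45, is higher. At like sums, Notch4 was 12.01 on the uninduced HE array at 18.84 and 10.71 on the induced myeloid array at 18.85. These arrays differ in stage, Dox, slide and scan day. Another pair lay closer, with 10.48 on the uninduced HE2 array at 18.04 and 10.13 on the induced progenitor array at 18.05. Hey2 stays low in induced myeloid progenitors, where the sum is 18.49 to 18.85, and the highest Jag1 points, 10.13 and 10.18, are the uninduced progenitors with sums of 16.52 and 16.43.

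Notch2, a receptor with roles in vessel walls and in several blood lineages, was downregulated by Dox at the earliest stages. On uninduced HE arrays it lay at 10.55, 11.11 and 10.50, and on induced ones at 8.94, 9.67 and 9.10. On HE2 arrays it lay at 10.51, 11.02 and 10.53 without Dox and at 9.47, 9.42 and 10.04 with Dox. The groups did not overlap at either stage. Notch2 fell by 1.48 (SE 0.232, adjusted P = 0.000193 by limma) in HE and by 1.04 (SE 0.232, adjusted P = 0.0043) in HE2, and the responses differed by 0.44 (SE 0.329, adjusted P = 0.862). Within slides 1 and 2, the differences were -1.89 and -1.12 in HE and -1.29 and -0.80 in HE2.

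In progenitors Notch2 had 10.59 and 10.64 without Dox against 9.99 and 10.33 with Dox, and in myeloid progenitors 10.95 ± 0.226 (SD, n = 3) against 10.45 ± 0.153 (SD, n = 3). The differences of -0.45 and -0.50 were not called (adjusted P = 0.4 and 0.183 by limma), although the arrays did not overlap. Without Dox its group means stayed between 10.61 and 10.95 at all 4 stages, and no step between stages was called with or without Dox. The call in HE2 was lost without uninduced array 2 (-0.87) and without induced array 1 (-0.95) or 2 (-0.93). A second Notch2 probe, which never went above 6.84, did not follow the first (r = -0.0118 over 22 arrays) and gave -0.41 in HE and -0.17 in HE2, neither of them called. With the mean of both probes neither Notch2 change was called (-0.95 and -0.61). Hspa4l, Igsf8 and Specc1 had the patterns most like that of the first Notch2 probe (r = 0.909, 0.907 and 0.904).

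Notch1, the receptor required in the embryo for haematopoietic stem cell formation, differed little between the early groups, whose means lay between 7.49 and 7.98. It stood apart in uninduced myeloid progenitors, with 9.55, 8.49 and 8.75, against 8.05, 7.76 and 7.55 with Dox. The difference with Dox was -1.14 (SE 0.301, adjusted P = 0.0151 by limma), just outside the threshold, and reached it without uninduced array 2 (-1.36). From uninduced progenitors, at 7.599 and 7.38, to uninduced myeloid progenitors Notch1 rose by 1.44 (SE 0.336, adjusted P = 0.00332). That call was lost without uninduced myeloid array 1 (1.13), without uninduced progenitor array 1 (1.55) or 2 (1.33), and with slide or scan date as a block (1.39 and 1.499). The technical progenitor array, on the slide of the myeloid arrays, read 8.06. The second Notch1 probe had an r of 0.0753 with the first over the 22 arrays and gave 0.95 for this step, which was not called. The most similar patterns were those of Cmya5, Ttll11 and Olfr1383 (r = 0.787, 0.786 and 0.784).

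Among the ligands, Jag1 followed a path of its own. Jagged-1 is a ligand of endothelial, stromal and blood-forming cells. Uninduced HE arrays had 8.46, 8.69 and 8.26, HE2 arrays 8.74, 9.23 and 8.98, and progenitors 10.13 and 10.18, so that neighbouring stages did not overlap. The steps were 0.52 (adjusted P = 0.303 by limma) from HE to HE2 and 1.17 (SE 0.314, adjusted P = 0.0242) from HE2 to progenitors, and neither was called. With slide as a block the second step was called (1.22), and within slides 1 and 2 it was 1.14 and 1.199. In uninduced myeloid progenitors Jag1 had 7.49, 7.96 and 7.88, the lowest arrays of all, and fell by 2.38 (SE 0.314, adjusted P = 1.98e-05) from progenitors.

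This fall of Jag1 was -1.87 with slide and -1.74 with scan date as a block, where it was not called. The technical progenitor array, which shared slide and scan day with the myeloid arrays, read 9.91, above every uninduced myeloid array.

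Induced Jag1 levels were closer together. Induced arrays had 9.83, 8.96 and 8.31 in HE, 9.12, 9.48 and 9.11 in HE2, 9.64 and 9.00 in progenitors and 9.12, 9.14 and 9.21 in myeloid progenitors. With Dox, Jag1 rose by 1.38 (SE 0.281, adjusted P = 0.0023 by limma) in myeloid progenitors, where all induced arrays lay above all uninduced ones on the same slide. In progenitors the difference was -0.83 (SE 0.344, adjusted P = 0.183) and was not called, although both induced arrays lay below both uninduced ones. The Dox responses of myeloid progenitors and progenitors differed by 2.21 (SE 0.444, adjusted P = 0.0186), and Jag1 was the only one of the 10 genes called in this comparison, in which 1.5% of all genes were called. These stages also differ in the start and length of Dox, which cannot be told apart from stage. The call in myeloid progenitors was lost without uninduced array 1 (1.23), and that of the difference was lost without induced progenitor array 2 (1.89), which gave the same value with scan date as a block. Without induced myeloid array 3, the values were 1.35 and 2.18, both called. Pank1, Heatr5a and Hadhb had the patterns most like that of Jag1, with r of 0.781, 0.768 and 0.764.

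Jag2, the second Jagged ligand, fell with Dox in HE. Its arrays had 9.11, 9.00 and 9.67 without Dox and 7.80, 7.73 and 8.49 with Dox, with no overlap, and the fall was 1.25 (SE 0.314, adjusted P = 0.00983 by limma). Within slides 1 and 2 the Jag2 difference was -1.26 and -1.56. The call was lost without any uninduced HE array (-1.33, -1.38 and -1.05 for arrays 1 to 3) and without induced array 1 (-1.15) or 2 (-1.11). At the other stages the Dox differences of Jag2 lay between -0.27 and 0.37 and induced and uninduced arrays overlapped. Without Dox its level went from 8.67, 8.74 and 9.09 in HE2 to 7.502 and 7.68 in progenitors, by -1.24 (SE 0.352, adjusted P = 0.0336 by limma), which was not called. The 2 induced progenitor arrays were far apart, at 7.20 and 8.72. Its closest patterns were Gja5, which encodes an arterial gap junction protein, Hdgfl3 and Pdlim1 (r = 0.81, 0.80 and 0.787).

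Dll1 and Dll4, ligands of the Delta-like family, were highest in HE. Dll1 had 6.90, 7.08 and 7.96 in uninduced HE and 6.30, 6.02 and 6.13 in HE2, a fall of 1.17 (SE 0.245, adjusted P = 0.0043 by limma). In induced HE2 it had 6.54, 6.65 and 7.34, above every uninduced HE2 array, and the difference of 0.70 (SE 0.245, adjusted P = 0.0581) was not called. From induced HE2 to induced progenitors, at 5.70 and 5.28, Dll1 fell by 1.35 (SE 0.274, adjusted P = 0.00226). The step from HE to HE2 with Dox was -0.87 (adjusted P = 0.0433) and that from HE2 to progenitors without Dox -0.78 (adjusted P = 0.0989), neither of them called. Of the 10 progenitor and myeloid arrays, 3 had Dll1 well above background. The first call was lost without uninduced HE array 3 (-0.85) or uninduced HE2 array 2 (-1.10), and the second without induced progenitor array 2 (-1.14) and with slide or scan date as a block (-0.96 and -1.14). With a normexp offset of 50, and on the authors' deposited values, both Dll1 changes were smaller than 2-fold, at -0.89 and -0.92 and at -0.92 and -0.96.

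Dll4, which is known for its part in arterial endothelium, had 8.43, 7.13 and 9.05 in uninduced HE and 8.10, 6.73 and 8.55 in induced HE, so that the arrays of a group were far apart. Its HE2 arrays had 7.11, 6.499 and 6.91 without Dox and 6.94, 7.17 and 6.31 with Dox. No Dox difference of Dll4 was called, with values between -0.41 and 0.46, and no step between stages was called either. Its fall from uninduced HE to HE2, by 1.36 (SE 0.439, adjusted P = 0.055 by limma), was called without uninduced HE array 2 (-1.90). Dll4 was the only gene of the 10 with no call in the 10 comparisons of 2 groups. The share of all genes with no call in these comparisons is not given here, so whether this is unusual is not shown. Hip1, Lhfp and Gm5414 had the patterns most like that of Dll1 (r = 0.97, 0.965 and 0.964), and Hoxb3, Mrgpre and Tanc1 those most like that of Dll4 (r = 0.953, 0.929 and 0.926).

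Among the targets, Hes1 fell with Dox in HE, and its response there differed from that in HE2. Hes1 encodes a repressor that Notch signalling induces directly in many tissues. Uninduced HE arrays had 8.61, 8.78 and 9.35 and induced ones 7.76, 7.73 and 7.89, with no overlap, and Hes1 fell by 1.12 (SE 0.27, adjusted P = 0.00725 by limma). In HE2 the arrays had 8.25, 8.46 and 8.51 without Dox and 8.42, 9.74 and 9.26 with Dox, and the difference of 0.73 (SE 0.27, adjusted P = 0.072) was not called. The response in HE2 exceeded that in HE by 1.86 (SE 0.382, adjusted P = 0.0246 by limma), a call that 1.34% of all genes reached in either direction. It was kept in all 12 fits with 1 array left out. The call was lost when only the groups compared were fitted, and at an adjusted P of 0.001, where 0% of all genes were called. From induced HE to induced HE2, Hes1 rose by 1.35 (SE 0.27, adjusted P = 0.00524), whereas the uninduced step was -0.51 (adjusted P = 0.287).

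Within slide 1 the Hes1 Dox difference was -0.94 in HE and 0.066 in HE2, and within slide 2 it was -1.54 and 0.99. The fall of Hes1 in HE lost its call without uninduced array 2 (-1.19) or 3 (-0.91) and without any induced array (-1.11, -1.09 and -1.17 for arrays 1 to 3), and with scaling to the 75th percentile (-1.12). The Dox difference in HE2 was called without induced array 1 (1.09), and the rise from induced HE to HE2 lost its call without induced HE2 array 2 (1.05). Progenitors had 8.12 and 7.81 without Dox and 8.19 and 7.89 with Dox, and myeloid progenitors 7.21, 6.83 and 7.17 against 6.73, 6.08 and 6.39. With Dox, Hes1 was lower by 1.64 (SE 0.302, adjusted P = 0.00098 by limma) in myeloid progenitors than in progenitors, which also differed in the start and length of Dox. The value was -1.49 without induced progenitor array 1, and -1.49, not called, with scan date as a block. Traf7, Zfp652 and Ctbs had the most similar patterns (r = 0.897, 0.895 and 0.894).

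Hey1, an endothelial repressor induced by Notch, had Dox differences of the same sign as Hes1 in HE and HE2, neither of them called. Hey1 had 10.20, 10.48 and 10.77 in uninduced and 9.92, 9.995 and 10.06 in induced HE, and 10.02, 10.26 and 10.26 in uninduced and 10.09, 10.96 and 11.16 in induced HE2. The differences were -0.49 (adjusted P = 0.209 by limma) and 0.56 (adjusted P = 0.134), and the 2 responses differed by 1.05 (SE 0.346, adjusted P = 0.223). That difference was called with the replicate number as a block (1.05, adjusted P = 0.0552) and without induced HE2 array 1 (1.38). From induced HE2 to induced progenitors, at 8.71 and 9.01, Hey1 fell by 1.88 (SE 0.274, adjusted P = 0.000137), and the uninduced step was -0.92 (adjusted P = 0.0446). Hey1 lay lowest in myeloid progenitors, with 8.28 to 8.82 without and 8.45 to 8.88 with Dox. Its closest patterns were those of Tspan18, Dock6 and Dab2ip (r = 0.937, 0.934 and 0.924).

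Hey2, the repressor whose promoter window holds the RBPJ letters shown above, varied nearly as widely as Notch4, by 4.30 between group means. Uninduced HE arrays were far apart, at 7.77, 8.84 and 9.91, and induced ones had 9.75, 9.00 and 9.17. Uninduced HE2 arrays had 6.64, 7.10 and 6.93, and induced ones 8.60, 8.58 and 8.24, within the range of uninduced HE. The HE2 difference of 1.58 (SE 0.402, adjusted P = 0.0105 by limma) missed the threshold on the unadjusted P narrowly. It was called with a normexp offset of 50 (1.34), without background correction (1.51), with scaling to the 75th percentile (1.63) and on the authors' deposited values (1.37). Within slides 1 and 2 the Hey2 difference in HE2 was 1.73 and 1.48, whereas in HE it was 1.45 and -0.83.

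Without Dox, Hey2 fell by 1.95 (SE 0.402, adjusted P = 0.00382 by limma) from HE to HE2, and with Dox by 2.48 (SE 0.449, adjusted P = 0.000947) from HE2 to progenitors. The other step of each path was not called, at -1.65 (adjusted P = 0.0262) from HE2 to progenitors without Dox and -0.83 (adjusted P = 0.281) from HE to HE2 with Dox. The Hey2 responses to Dox did not pass the test of a difference between HE2 and HE (1.11, adjusted P = 0.642) or between progenitors and HE2 (-0.82, adjusted P = 0.802). Progenitor arrays had 5.25 and 5.22 without Dox and 6.70 and 5.28 with Dox. In uninduced myeloid progenitors the probe was not well above background on any array, so that its level there is a bound. Of the induced myeloid arrays 1 was well above background, so that their mean is close to a bound as well. The fitted difference of 0.52 (adjusted P = 0.496 by limma) was not called. The first call was lost without uninduced HE array 3 (-1.41) or uninduced HE2 array 1 (-1.82), and the second without induced progenitor array 2 (-1.77) and with slide or scan date as a block (-1.66 and -1.77). Hip1, Fndc3b and Acvr1 had the patterns most like that of Hey2 (r = 0.978, 0.975 and 0.97).

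**Figure D3:**
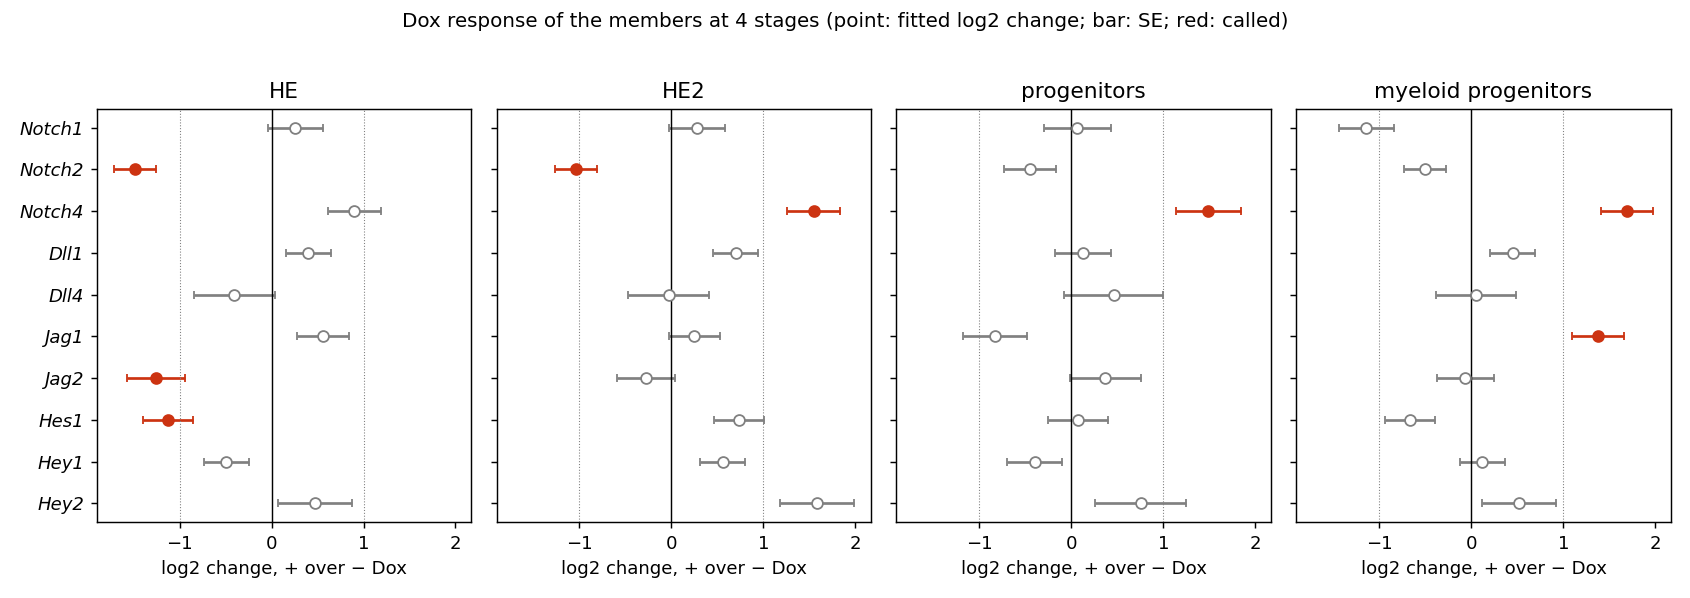
Fitted log2 change with over without Dox (x axes) of each of the 10 Notch genes (y axis) in HE, HE2, progenitors and myeloid progenitors, with SE bars, called changes in red and dotted lines at a 2-fold change. Notch4 lies to the right of 0 at every stage, from 0.90 to 1.69, Hes1 lies at -1.12 in HE and 0.73 in HE2, and Jag1 lies at -0.83 in progenitors and 1.38 in myeloid progenitors.

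Between HE and progenitors, every called change of the 10 genes was a fall except the rise of Hes1 with Dox, in steps that share the arrays of the stage between them. From HE to HE2 without Dox none rose and 3 fell, Notch4, Dll1 and Hey2, where 2.39% of all genes rose and 2.67% fell. With Dox only Hes1 rose and none fell, beside 1.62% and 1.47%. From HE2 to progenitors without Dox none rose and Notch4 fell, beside 1.78% and 3.62%, and with Dox none rose and Notch4, Dll1, Hey1 and Hey2 fell, beside 2.02% and 5.34%. The fitted change was below 0 for 9 of 10 genes in both uninduced steps, called or not, and the exception was Jag1 in each. From HE to HE2 with Dox it was below 0 for 5 of 10. The median change of the 10 genes was -0.47 from HE to HE2 and -0.85 from HE2 to progenitors without Dox, and 0.038 and -0.88 with Dox, where the medians of all genes lay between -0.045 and 0.028.

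From progenitors to myeloid progenitors, Notch1 rose and Jag1 fell without Dox, beside 7% and 6.93% of all genes, and with Dox none rose and Hes1 fell, beside 4.86% and 2.51%. Slide and scan day changed together with this step, and with Dox the start and length of treatment changed too. For the Dox response, none of the 10 genes was called between HE2 and progenitors, where 0.645% of all genes were, or between HE and myeloid progenitors, where 4.72% were. At an unadjusted P under 0.05, limma gave 2 of the 10 for the first of these, Jag1 and Hey1, beside 8.1% of all genes, and 3 for the second, Notch1, Notch2 and Jag2, beside 16.3%. With slide as a block, Jag2 was called for the second (1.32).

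Other cell markers moved in the same comparisons. In uninduced HE the summed cardiac and smooth muscle markers lay at 16.67 to 17.87 and the epithelial ones at 14.59 to 15.89, against 15.17 to 15.62 and 12.65 to 13.35 in induced HE. In HE2 they lay at 14.91 to 16.70 and at 13.64 to 14.87 without Dox, against 13.55 to 13.65 and 11.52 to 11.84 with Dox, with Cdh1 and Epcam not above background in the induced arrays. Of 7 cardiac and smooth muscle markers, 1 rose and 1 fell with Dox in HE and 4 fell in HE2. Of 6 mesenchymal markers, 1 rose and 2 fell in HE and 2 fell in HE2, and of 8 myeloid markers tested 3 fell in HE2. Among all genes, 4.7% rose and 2.39% fell in HE, and 5.17% rose and 2.05% fell in HE2. Erythroid markers rose with Dox in HE (2 of 7), HE2 (4) and progenitors (3), beside 4.7, 5.17 and 3.03% of all genes. The erythroid sum reached 20.20 to 20.34 in uninduced myeloid progenitors. From uninduced progenitors to these cells, 7 of 7 erythroid markers rose, with a median change of 3.73. Of the 8 myeloid markers tested, 1 rose and 2 fell in this step, with a median of -0.741. Among all genes, 7% rose and 6.93% fell. The name myeloid progenitors is thus that of the labels, and their markers in this list do not set them apart as more myeloid. Itga2b also fell with Dox in HE, as given above. The part of these genes in the falls of Notch2, Jag2 and Hes1 and in the stage differences was not tested.

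As a description over the 22 arrays, the pairs of most similar pattern among the 10 genes were Dll1 with Hey2 (r = 0.962), Notch4 with Dll1 (0.939) and Notch4 with Hey2 (0.919). Over the 16 arrays of the early stages alone, these values were 0.944, 0.934 and 0.929. Hes1 was most like Hey1 (0.839 and 0.737). The lowest value over all 22 arrays was that of Notch2 with Notch4 (-0.654, and -0.547 in the early stages). These arrays share stages and slides, so that the values describe likeness of pattern and nothing more.

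The rest of the pathway was read from 56 genes, of which 54 could be named on the array and 48 were tested. With Dox, 2 of the 48 rose and none fell in HE, 3 rose and 1 fell in HE2, 3 rose in progenitors and 7 rose in myeloid progenitors. In the same order, 4.7, 5.17, 3.03 and 5.13% of all genes rose, so that the counts in HE and HE2 lay near the background. Their median change lay between -0.0098 in HE and 0.13 in HE2 and myeloid progenitors. Efnb2, which encodes the arterial marker ephrin B2, rose by 1.77 (SE 0.355, adjusted P = 0.00185 by limma) in HE2, by 2.41 (SE 0.435) in progenitors and by 1.81 (SE 0.355) in myeloid progenitors, and had 0.59 in HE. Sgk1, which encodes a serum- and glucocorticoid-regulated kinase, rose by 1.56, 1.52 and 2.12 at the same 3 stages and had -0.19 in HE. Both genes also fell in the 2 uninduced steps from HE to progenitors, as Notch4 did, with changes of -1.73 and -3.09 for Efnb2 and -1.05 and -2.39 for Sgk1.

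Nrarp, a feedback inhibitor and direct Notch target, had -0.89 (SE 0.208, adjusted P = 0.00606 by limma) with Dox in HE, under 2-fold, and 0.45 in HE2, and rose by 1.03 (SE 0.255, adjusted P = 0.0205) in progenitors. Its responses in HE and HE2 differed by 1.34 (SE 0.294, adjusted P = 0.0353), in the direction seen for Hes1. From HE2 to progenitors the change of Nrarp was -1.78 without and -1.198 with Dox, both called. Gata2, a blood stem cell regulator, rose by 1.26 (SE 0.291) in myeloid progenitors, and Gata3 fell from HE2 to progenitors by 1.41 without and 1.49 with Dox.

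In the nuclear complex, the coactivator gene Maml2 rose with Dox by 1.28 (SE 0.279, adjusted P = 0.00344 by limma) in HE, 1.57 in HE2 and 1.83 in myeloid progenitors, with 0.88 in progenitors, and Maml3 rose by 1.30 in myeloid progenitors. Rbpj was not called in any comparison, with Dox differences between -0.21 and -0.11. Among regulators, Dtx1, which encodes a Deltex ubiquitin ligase, rose by 1.99 (SE 0.344) in HE and fell by 1.89 from induced HE to HE2. Dtx4, a relative of Dtx1, fell by 1.90 (SE 0.362) in HE2, after rising by 2.45 from uninduced HE to HE2, and rose by 1.94 from induced HE2 to progenitors. Numb, an inhibitor of Notch signalling, rose by 1.52 (SE 0.312) in myeloid progenitors.

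In receptor processing, Furin, the protease of the first receptor cleavage, rose by 1.49 (SE 0.198, adjusted P = 3.93e-05 by limma) in myeloid progenitors and had -0.82 in HE, a difference in response of 2.31 (SE 0.279, adjusted P = 5.83e-05). Without Dox, Furin fell by 1.48 from progenitors to myeloid progenitors and, like Jag1, differed in Dox response between these stages, by 1.55 (SE 0.312, adjusted P = 0.0187). Mfng, which encodes the glycosyltransferase manic fringe, rose by 2.18 (SE 0.338) without and by 2.63 (SE 0.338) with Dox from HE to HE2, and was the only gene of its 9 called in these steps. None of the 3 other receptors and ligands tested, Notch3, Dll3 and Dlk1, and none of the 4 other HES and HEY genes tested, was called with Dox or in the steps from HE to progenitors.

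**Figure D4:**
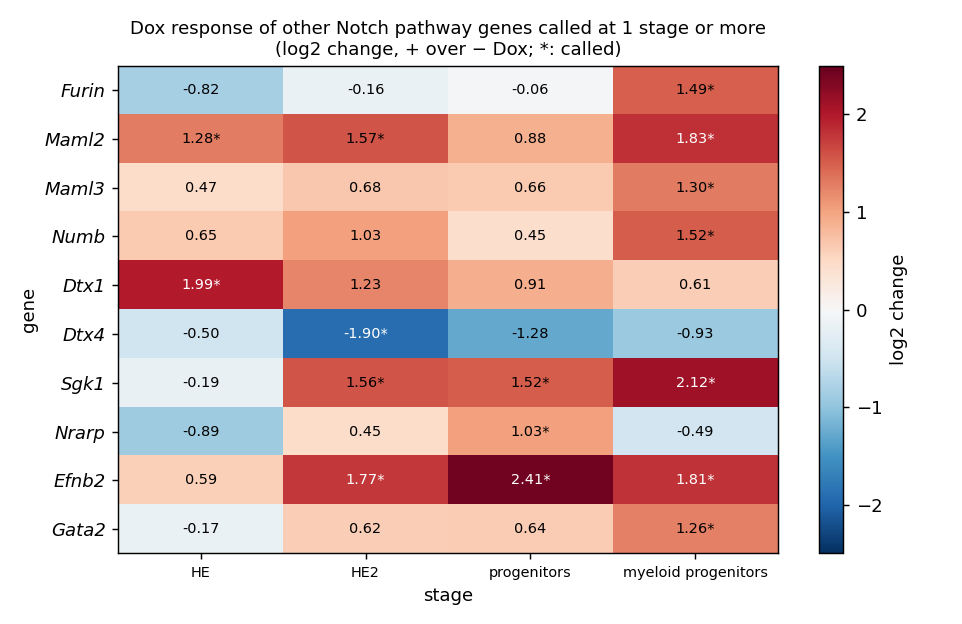
Fitted log2 change with over without Dox (colour and printed value) of the 10 other pathway genes (y axis) that were called at 1 stage or more, at each of the 4 stages (x axis), with called changes starred. Efnb2 and Sgk1 were called in HE2, progenitors and myeloid progenitors, as Notch4 was, and Dtx4 in HE2 is the only fall among the called values, at -1.90.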

How the data were processed

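RNA of 23 samples had been hybridised to 1-colour Agilent 8x60K mouse arrays. The deposited scanner files hold intensity values from Agilent Feature Extraction, version 10.7.1.1 per the labels, and the authors' deposited log2 values (normexp, quantile) served as an alternative. Median spot intensities were corrected for median background with normexp at offset 16 and quantile-normalized over 23 arrays in limma 3.58.1 (R 4.3.3). Of 62976 spots, 3671 controls were left out, outlier-flagged spots were dropped and spots of a probe were averaged. For outlier-flagged marker spots (Prtn3 in uninduced HE array 2, Erg in induced HE2 array 2), the marker sums used the mean of the group.

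Symbols came from RefSeq accessions (26582 of 55681 probes, 20145 genes), with the probe of highest mean kept per gene. Genes with a log2 intensity of 6.5 or more on any array (15202) were fitted with lmFit and eBayes over 8 groups and 22 arrays (14 residual degrees of freedom). The technical array was left out of the fit. A change was called at P of 0.001 or lower and 2-fold or more. In simulated data with 200 genes changed by 1.5 on the log2 scale, 81.5% were recovered for Dox in HE and 74.5% in progenitors. The simulated arrays varied independently, with no effect of slide, scan date or replicate number. These shares thus check the fit and do not give the recovery in the real arrays. The number of arrays limits the precision.

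The 10 genes and all lists were chosen with earlier results of these data known. The genes named are these 10, the pathway genes called with Dox or between HE and progenitors, and the 3 most correlated genes of each. Same-numbered uninduced HE and HE2 arrays deviated together (r = 0.394, 0.795 and 0.608), and no other groups did so in all pairs, apart from progenitors, which had 2 pairs. Alternatives covered background correction, scaling, the floor, the probe, the threshold, the arrays fitted, and replicate, slide and scan date as blocks. Figures were drawn with matplotlib 3.10.9.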

Additional observations from a re-analysis of the deposited data

Results flagged for a closer look

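Hes1 was singled out because its responses to Dox in HE2 and HE differed by a test of the difference itself, by 1.86 on the log2 scale (SE 0.382, adjusted P = 0.0246 by limma). That call was lost when only the groups compared were fitted. All 3 induced HE arrays lay below all uninduced ones, and 2 of the 3 induced HE2 arrays lay above all uninduced ones.

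Jag1 was singled out because its responses to Dox in myeloid progenitors and in progenitors differed, by 2.21 on the log2 scale (SE 0.444, adjusted P = 0.0186 by limma). All 3 induced myeloid arrays lay above, and both induced progenitor arrays below, the uninduced arrays of their stage. Single outlying arrays were not tested, since each group had 2 or 3 arrays.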

How the results depend on the processing

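The 22 called changes of the 10 genes kept their direction in all 223 refits with another background correction, scaling, floor, probe or set of arrays, and 200 of these were still called. They also kept it in 66 refits with a block (54 called) and 132 with 1 array left out (102 called). Another threshold leaves the fitted values as they are, and 53 of 66 such calls were kept. The cause was not tested unless stated. Numbers below are counts of the 10 genes called, with the reported count in brackets. Apart from the thresholds, no share of all genes is given beside them, so whether all genes changed likewise is not shown.

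At an adjusted P of 0.001, 1 gene was called with Dox in HE (3) and 1 in HE2 (2), beside 4.22 and 4.03% of all genes. In progenitors 0 were called (1) and in myeloid progenitors 1 (2), beside 1.11 and 3.97%. From HE to HE2, 0 were called without (3) and 0 with Dox (1), beside 1.84 and 0.954%. The step from HE2 to progenitors with Dox gave 3 (4), beside 3.45%. That from progenitors to myeloid progenitors without Dox gave 1 (2), beside 9.06%. For the difference in response, 0 were called for HE2 minus HE (1), beside 0% of all genes. For myeloid progenitors minus progenitors 0 were called (1), beside 0.0592%. At an adjusted P of 0.05, 4 were called from HE2 to progenitors without Dox (1) and 5 with Dox (4), beside 6.79 and 9.42% of all genes. In the Dox responses, 3 were called in HE2 (2) and 3 in myeloid progenitors (2), beside 8.87 and 7.67%. By 2-fold alone, the step from HE2 to progenitors gave 5 without (1) and 5 with Dox (4), beside 9.2 and 12.7%, and that from HE to HE2 without Dox gave 4 (3), beside 7.82%. The Dox response gave 3 in HE2 (2) and 3 in myeloid progenitors (2), beside 10.5 and 8.72%. The differences in response gave 3 for HE2 minus HE (1), 1 for progenitors minus HE2 (0), 2 for myeloid progenitors minus progenitors (1) and 2 for myeloid progenitors minus HE (0), beside 6.1, 7.91, 10.1 and 11.7% of all genes.

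Fitted on only the groups compared, with fewer samples, 1 gene was called with Dox in HE and 0 in progenitors, 1 from HE to HE2 without and 0 with Dox, 3 from HE2 to progenitors without and 2 with Dox (4), 1 from progenitors to myeloid progenitors without Dox, and 0 for the difference between HE2 and HE. With the technical array added to the uninduced progenitors, 3 were called from HE2 to progenitors without Dox. With probes of a gene averaged, or with the other Notch1 probe, 1 was called from progenitors to myeloid progenitors without Dox. With the other Notch2 probe 1 was called with Dox in HE2. With the other Notch1 probe the difference in Notch1 response between myeloid progenitors and HE turned from -1.40 to 0.24.

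With the replicate number as a block, which pairs only uninduced HE and HE2, 3 genes were called from HE to HE2 without Dox, as before, and 2 for the difference between HE2 and HE, with Hey1 (1.05) added. With slide as a block, 0 were called with Dox in progenitors, 4 from HE2 to progenitors without and 2 with Dox, 0 from progenitors to myeloid progenitors without Dox, and 1, Jag2, for the difference between myeloid progenitors and HE. With scan date as a block, 0 were called with Dox in progenitors, 3 from HE2 to progenitors without Dox, 0 from progenitors to myeloid progenitors without and 0 with Dox (1), and 0 for the difference between myeloid progenitors and progenitors.

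With 1 array left out, between 1 and 2 genes were called with Dox in HE, 1 and 2 in HE2, 0 and 0 in progenitors and 1 and 3 in myeloid progenitors. From HE to HE2 between 1 and 4 were called without and 0 and 2 with Dox, from HE2 to progenitors 1 and 1 without and 3 and 5 with Dox, and from progenitors to myeloid progenitors 1 and 2 without and 0 and 1 with Dox. For the differences in response, between 1 and 2 were called for HE2 minus HE, 0 and 1 for myeloid progenitors minus progenitors, and 0 and 0 for the other pair. The change of Jag2 from HE2 to progenitors with Dox turned from -0.60 to 0.16 without induced progenitor array 1 and was -1.36 without array 2. Where an arm was left with 1 array, that array was taken to vary like the other groups. Dll1 and Hey2 in progenitors and myeloid progenitors lay close to background, which limits changes there to bounds.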
